A study of Mus musculus with 11 samples.

Results

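The vascular endothelial growth factor (VEGF) family was taken as its 5 ligands, Vegfa, Vegfb, Vegfc, Vegfd and Pgf, its 3 receptor tyrosine kinases, Kdr, Flt1 and Flt4, and the 2 neuropilins, Nrp1 and Nrp2. These 10 genes were found by symbol, as known members of the family, among the 27179 genes of the count table. Each of the 10 passed the filter on low counts that left 14303 genes for testing. RNA was taken from the whole mouse aorta (arch, thoracic and abdominal segments) after perivascular fat had been stripped off.

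The KO_HFD_LNAME group held 3 libraries from mice lacking Mpst, the gene of the sulfide-producing enzyme 3-mercaptopyruvate sulfurtransferase. These mice ate a diet with 45% of its energy as fat for 15 weeks, and then for 5 more weeks with L-NAME, an inhibitor of nitric oxide synthases. The WT_HFD_LNAME group held 4 libraries from wild-type mice given the same diet and inhibitor. The WT_CD group held 4 libraries from wild-type mice on chow with 10% of its energy as fat, for which 15 weeks are stated. All mice were of the C57BL6/J background and 6 to 7 weeks old at the start. The groups fed chow and fat differ in diet, inhibitor and stated duration at once, and these cannot be told apart. Whether the libraries of a group stem from different animals is not stated, and the p-values cover the spread among libraries, which may be technical.

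VEGF-A binds the receptors Kdr (VEGFR2) and Flt1 (VEGFR1) on endothelial cells. Kdr carries most of its signal for growth, permeability and nitric oxide release, whereas Flt1 binds VEGF-A tightly, signals weakly and also exists as a soluble decoy. Vegfb and Pgf (placental growth factor) bind Flt1, and Vegfc and Vegfd, after proteolytic processing, bind Flt4 (VEGFR3), the receptor best known from lymphatic vessels. Nrp1 and Nrp2 are co-receptors that also bind class 3 semaphorins and are made by many cell types besides endothelium.

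Library totals ran from 8665968 to 15340697 counts, and the lowest member count was 17 reads, for Kdr and for Flt4 in WT_CD 2. Mpst had 3, 5 and 4 counts in the KO_HFD_LNAME libraries, against 317 to 431 in WT_HFD_LNAME and 265 to 532 in WT_CD. The mean log2 level of 8 smooth muscle markers averaged 9.83, 9.72 and 9.84 in KO_HFD_LNAME, WT_HFD_LNAME and WT_CD. Single libraries ran from 9.22 (WT_CD 3) to 10.25 (WT_CD 2). In WT_HFD_LNAME against WT_CD 1 of the 8, Des, had a fold change above 0, and 0 were called. Several libraries stood apart. WT_CD 1 and WT_CD 2 were rich in the ribosomal transcript Rn45s (10.1% and 17.4% of their counts), which made up 0.815% to 2.98% elsewhere. The mean log2 level of 11 cardiac muscle markers was 5.76 in WT_HFD_LNAME 3 and 7.17 in WT_HFD_LNAME 4, against 1.40 to 3.99 elsewhere. Sympathetic neuron markers averaged 1.89 to 4.04 in KO_HFD_LNAME and 1.70 to 5.42 in WT_HFD_LNAME, but -0.29 to 0.10 in WT_CD. Schwann cell markers averaged 3.14 to 4.15, 3.59 to 4.86 and 1.49 to 2.68 in KO_HFD_LNAME, WT_HFD_LNAME and WT_CD, and B cell markers 2.598 to 5.54, 1.78 to 4.11 and 0.44 to 1.41. Mitochondrially encoded genes took 12.3% to 17.2%, 11.7% to 27.8% and 7.73% to 23.3% of counts. Mesothelial markers averaged 1.52 to 4.20 in KO_HFD_LNAME, -0.39 to 2.94 in WT_HFD_LNAME and -0.69 to -0.18 in WT_CD. Erythroid markers averaged 6.16 to 7.58, 6.08 to 6.73 and 6.03 to 9.12 in the same order of groups. The part of these differences in the results below was not tested beyond the values given without such libraries.

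Levels between genes are compared as CPM (counts scaled to library size with TMM factors) per kilobase of merged GENCODE M21 exons; the annotation that the authors counted on is not given in the sources used here. By this measure the ligand Vegfb was the most abundant member in each group, with a mean of 63.1 ± 4.26 CPM per kb in KO_HFD_LNAME (SD, n = 3), 70.1 ± 21.2 in WT_HFD_LNAME (n = 4) and 58.7 ± 32.0 in WT_CD (n = 4). It was ahead of the next member, Vegfd, in 10 of 11 libraries. Vegfd, Vegfa and Nrp1 came next, with means over all libraries of 23.3, 17.7 and 17.5 CPM per kb, and their ranges overlapped, so that their order is not resolved. Nrp1 was above Vegfc in 11 of 11 libraries without overlap, whereas the range of Vegfa (from 4.48 CPM per kb) overlapped that of Vegfc (up to 5.13). Vegfc averaged 3.54, Pgf 2.42, Nrp2 1.88, Kdr 1.63, Flt1 1.26 and Flt4 0.903 CPM per kb, and the ranges of neighbours in this order overlapped over all 11 libraries. Within WT_HFD_LNAME alone, Flt1 lay above Flt4 in 4 of 4 libraries without overlap.

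**Figure D1:**
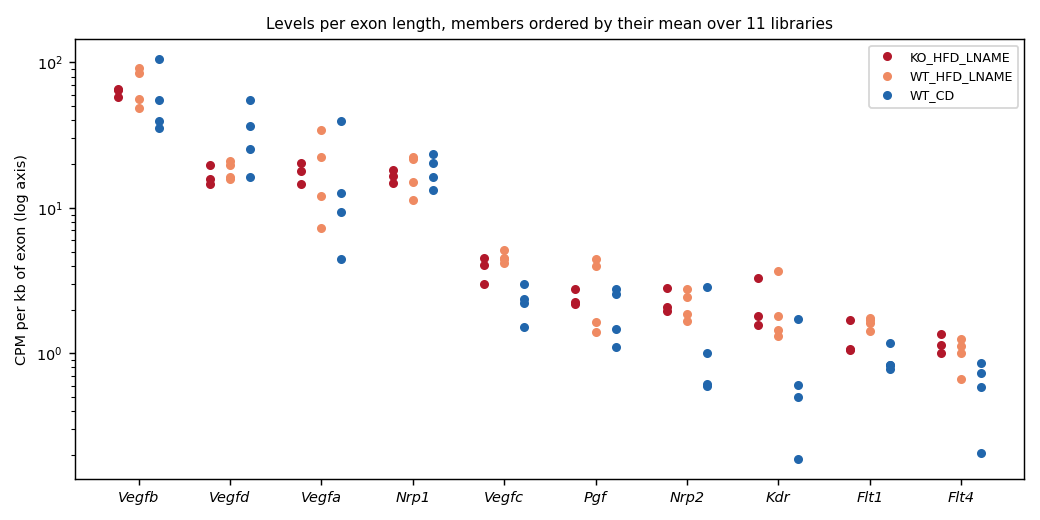
CPM per kb of merged exon (log axis) for each member, ordered by the mean over 11 libraries, with 1 point per library and the groups KO_HFD_LNAME, WT_HFD_LNAME and WT_CD from left to right within each gene. Vegfb leads at 35.5 to 105 CPM per kb, and the receptor tyrosine kinases Kdr, Flt1 and Flt4 lie lowest, between 0.188 and 3.68.

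Among the summed ligands, Vegfb took a mean share of 60.8% in KO_HFD_LNAME, 60.5% in WT_HFD_LNAME and 50.1% in WT_CD. Vegfd took 16.2% and 17.1% in the fat-fed groups KO_HFD_LNAME and WT_HFD_LNAME, and 32.8% in WT_CD, where single libraries ran from 9.88% to 55.3%. Among the 3 receptor tyrosine kinases, Kdr took 46.7%, 42.3% and 29.1% of the summed level in KO_HFD_LNAME, WT_HFD_LNAME and WT_CD, and Flt1 took 27.4%, 35.8% and 44.5%. These shares are descriptions over 3 or 4 libraries.

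The windows just upstream of the RefSeq start of Vegfc, Flt1 and Kdr are printed because Vegfc and Flt1 separated WT_HFD_LNAME from WT_CD without overlap and Kdr had the largest fold change of the 10 genes there. The sequences are those of RefSeq on GRCm38.p6, 250 bases each, 5′ to 3′ on the gene's strand, with motif matches in capitals. Motifs were read on both strands. The SP1 motif searched was GGGCGG. The ETS core was either AGGAAG or, with a change in the first letter only, CGGAAG. The core of the cAMP response element was TGACG. The hypoxia response core was ACGTG. The TATA box was TATAAA. The SOX motif was either ACAATG or, with a change in the letter before the last, ACAAAG.
Vegfc (chr8:54077282-54077531, plus strand): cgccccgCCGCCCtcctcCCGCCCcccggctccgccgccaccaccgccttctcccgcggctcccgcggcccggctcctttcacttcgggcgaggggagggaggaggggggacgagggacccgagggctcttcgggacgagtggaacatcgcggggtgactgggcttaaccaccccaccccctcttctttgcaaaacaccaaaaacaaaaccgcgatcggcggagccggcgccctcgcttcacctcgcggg
Flt1 (chr5:147726012-147726261, minus strand): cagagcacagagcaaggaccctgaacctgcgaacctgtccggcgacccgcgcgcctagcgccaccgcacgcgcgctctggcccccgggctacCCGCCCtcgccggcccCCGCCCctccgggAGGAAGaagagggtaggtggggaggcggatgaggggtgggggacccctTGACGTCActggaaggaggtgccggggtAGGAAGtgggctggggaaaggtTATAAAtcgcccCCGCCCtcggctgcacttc
Kdr (chr5:75978456-75978705, minus strand): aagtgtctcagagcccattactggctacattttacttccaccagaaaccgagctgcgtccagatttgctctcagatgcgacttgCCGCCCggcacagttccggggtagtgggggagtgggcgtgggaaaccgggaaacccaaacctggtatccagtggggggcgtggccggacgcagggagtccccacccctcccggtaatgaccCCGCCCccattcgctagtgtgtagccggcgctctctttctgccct

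The Flt1 window held 3 SP1 matches, 2 ETS matches, 1 TATA match 25 bases before the start, and 2 overlapping TGACG matches, one on each strand. The Vegfc and Kdr windows each held 2 SP1 matches and none of the other motifs. No hypoxia response core or SOX match lay in any of the 3 windows. Of all 32851 such mouse windows, 39.2% held an ETS core, 32.7% an SP1 motif, 17.8% TGACG, 12.4% TATAAA, 16.6% ACGTG and 25.2% a SOX motif. The windows of Flt1 and Kdr lie inside the full RefSeq span of their genes, whose longest transcripts start further upstream. These matches are letters in a window and say nothing about binding in these aortas.

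The comparison of WT_HFD_LNAME with WT_CD asks what the fat diet with L-NAME did to the family in wild-type aorta. Vegfc, the lymphangiogenic ligand of Flt4, was the 1 member of 10 that passed the test, and it rose 2.003-fold. Over all tested genes 1.4% were called higher and 0.0839% lower here, and 15.1% had an unadjusted p under 0.05, against 4 of 10 members. The libraries of Vegfc and Flt1 did not overlap between the groups, both being higher in WT_HFD_LNAME, which is 2 of 10 members against 5.31% of all genes; 0 of 10 were lower without overlap, against 2.54%. In all, 8 of 10 members had a fold change above 0, against 46.1% of all genes, and the median log2 fold change was 0.65 for the family and -0.03 over all genes. All 16 endothelial markers also had a fold change above 0 here, as given with the receptors.

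**Figure D2:**
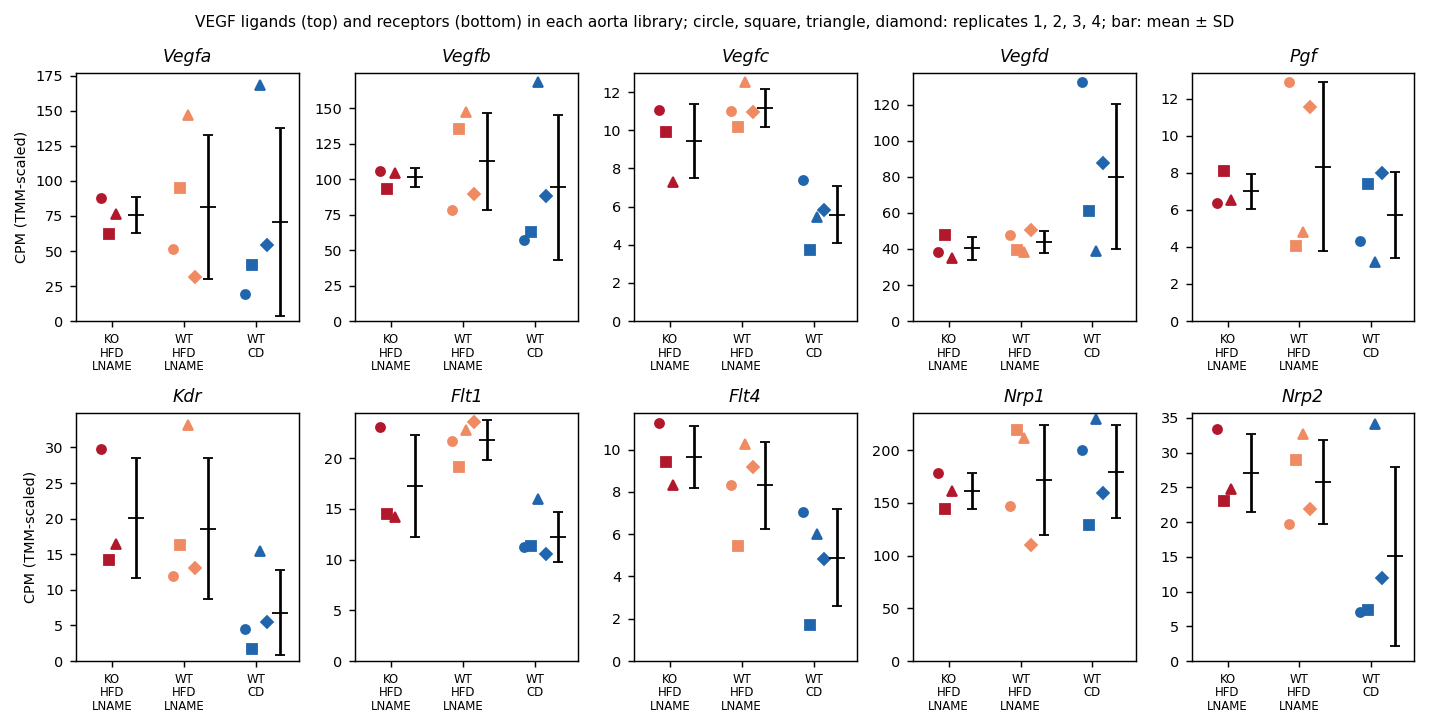
CPM of each member in each of the 11 libraries (points, shaped by replicate number) with the group mean ± SD (bar), in the order KO_HFD_LNAME, WT_HFD_LNAME, WT_CD. Vegfc and Flt1 separate WT_HFD_LNAME from WT_CD, and the triangle of WT_CD 3 lies far above the other WT_CD libraries for Vegfa, Vegfb, Kdr and Nrp2.

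Of the ligands, Vegfc had 11.1, 9.91 and 7.29 CPM in the KO_HFD_LNAME libraries, 11.01, 10.2, 12.5 and 10.96 CPM in WT_HFD_LNAME, and 7.40, 3.70, 5.43 and 5.81 CPM in WT_CD. Every WT_HFD_LNAME library lay above every WT_CD library, and the lowest KO_HFD_LNAME library lay below the highest WT_CD one. In WT_HFD_LNAME against WT_CD the log2 fold change was 1.002 (SE 0.21, 95% interval 0.54 to 1.46, adjusted p = 0.047). The call was near the threshold. It was lost on leaving out KO_HFD_LNAME 1 or 2 (adjusted p = 0.0657 and 0.0789), or WT_HFD_LNAME 1, 2, 3 or 4 (0.0918, 0.0722, 0.074 and 0.113). It was also lost without WT_CD 2 or 4 (adjusted p = 0.11 and 0.12), while the log2 fold change stayed between 0.85 and 1.16 over all 11 single omissions. Without WT_CD 1 and 2 together it was 0.99 (adjusted p = 0.186), and without WT_HFD_LNAME 3 and 4 together 0.93 (adjusted p = 0.252). The authors' deposited table gives a log2 fold change of 0.92 with an adjusted p of 0.000814 for Vegfc. In KO_HFD_LNAME against WT_CD it was 0.76 (adjusted p = 0.174).

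Vegfa, the main ligand of Kdr, had 87.7, 62.3 and 76.7 CPM in KO_HFD_LNAME, 51.5, 95.2, 147 and 31.2 CPM in WT_HFD_LNAME, and 19.2, 40.01, 169 and 54.2 CPM in WT_CD. The highest value of all was in a chow library, WT_CD 3, the lowest in another, WT_CD 1, and the groups overlapped throughout. Its log2 fold change was 0.20 in WT_HFD_LNAME against WT_CD (95% interval -1.15 to 1.56, adjusted p = 0.92). An 8.78-fold span between 2 libraries on the same chow exceeded any difference between group means; without WT_CD 3 the log2 fold change was 1.10 (adjusted p = 0.202). Vegfb, a Flt1 ligand, had 106, 93.4 and 104 CPM in KO_HFD_LNAME, 78.0, 135, 147 and 89.3 CPM in WT_HFD_LNAME, and 56.9, 63.1, 168 and 88.3 CPM in WT_CD. It also overlapped between groups, with a log2 fold change of 0.26 in WT_HFD_LNAME against WT_CD (95% interval -0.47 to 0.98, adjusted p = 0.777).

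The library order of Vegfa and Vegfb lay close to that of white and brown adipocyte markers and of the mitochondrial share. The mean log2 level of 8 such markers (Adipoq, Plin1, Lep and others) was 7.83 to 8.33 in KO_HFD_LNAME, 7.10 to 9.18 in WT_HFD_LNAME and 5.24 to 8.57 in WT_CD. None of the 8 was at 0 in any library, although the vessels had been stripped of fat, and Adipoq averaged 416, 578 and 382 CPM in KO_HFD_LNAME, WT_HFD_LNAME and WT_CD. WT_CD 3, WT_HFD_LNAME 3 and WT_HFD_LNAME 2 were the 3 highest libraries for Vegfa, for Vegfb and for the adipocyte score, and WT_CD 1 was the lowest for each of them. The score of 6 brown adipocyte markers had the same 3 highest libraries (7.90, 7.63 and 7.48 in WT_HFD_LNAME 3, WT_CD 3 and WT_HFD_LNAME 2) and the same lowest (3.82 in WT_CD 1). The mitochondrial share was highest in these 3 libraries as well, at 27.8%, 25.8% and 23.3% in WT_HFD_LNAME 3, WT_HFD_LNAME 2 and WT_CD 3, and lowest in WT_CD 2 at 7.73%. In WT_HFD_LNAME against WT_CD 1 of the 8 adipocyte markers, Lep, was called higher, with a median log2 fold change of 0.51 for the list. Over the 11 libraries Pearson r with the white adipocyte score was 0.92 for Vegfa and 0.89 for Vegfb. It was also high for Nrp2 (0.86) and Kdr (0.75), and Vegfd ran against the score (-0.81). The other members lay between -0.17 (Pgf) and 0.49 (Flt1). With the mean level of the smooth muscle markers, Pearson r was -0.87 for Nrp1, -0.83 for Vegfb, -0.77 for Vegfa and 0.78 for Pgf. The remaining members lay between -0.65 (Nrp2) and 0.46 (Vegfd) there. The part of adipocyte, smooth muscle or mitochondrial RNA in the values of these members was not tested.

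**Figure D3:**
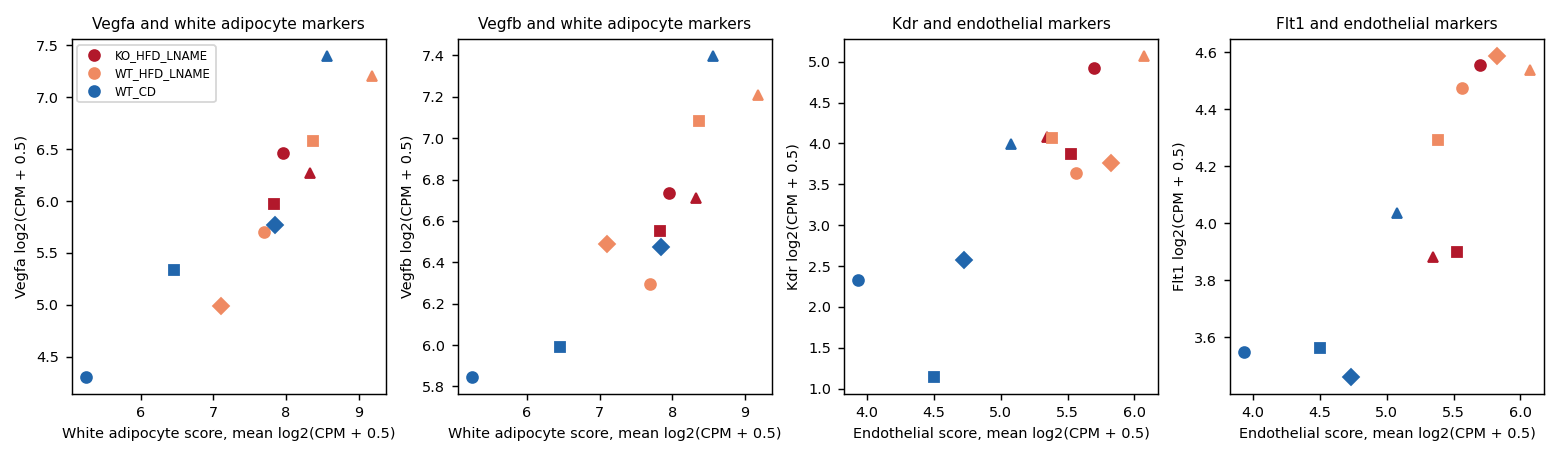
Level of Vegfa and Vegfb (log2 of CPM + 0.5) against the white adipocyte score, and of Kdr and Flt1 against the endothelial score, with 1 point per library, coloured by group and shaped by replicate number; each score is a mean of log2(CPM + 0.5) over its markers. WT_CD 1 is lowest on the adipocyte score at 5.24, and the 4 WT_CD libraries are the lowest on the endothelial score, at 3.93 to 5.08.

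Vegfd, which like Vegfc binds Flt4, had 38.3, 47.6 and 35.3 CPM in KO_HFD_LNAME, 47.8, 39.5, 38.2 and 50.7 CPM in WT_HFD_LNAME, and 133, 61.0, 39.0 and 88.0 CPM in WT_CD. Of the WT_CD libraries 3 lay above all 7 fat-fed libraries, and WT_CD 3 lay among them. It had a log2 fold change of -0.86 in WT_HFD_LNAME against WT_CD (SE 0.31, 95% interval -1.53 to -0.19, adjusted p = 0.202) and -0.99 in KO_HFD_LNAME against WT_CD (adjusted p = 0.231). In WT_HFD_LNAME against WT_CD the value was -1.09 without WT_CD 3 and passed the test (adjusted p = 0.0369). With that library left out, the calls over all genes rose from 212 of 14303 to 521 of 14190. Without WT_CD 1 the Vegfd value was -0.51 (adjusted p = 0.436). In KO_HFD_LNAME against WT_CD the value without WT_CD 1 was -0.63 (adjusted p = 0.347). Pgf, a Flt1 ligand, had 6.39, 8.10 and 6.53 CPM in KO_HFD_LNAME, 12.9, 4.05, 4.80 and 11.6 CPM in WT_HFD_LNAME, and 4.30, 7.40, 3.18 and 7.98 CPM in WT_CD. Its WT_HFD_LNAME libraries fell into a high and a low pair, and the log2 fold change against WT_CD was 0.54 (95% interval -0.36 to 1.44, adjusted p = 0.584).

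Of the receptors, Kdr had 29.8, 14.2 and 16.4 CPM in KO_HFD_LNAME, 11.9, 16.3, 33.2 and 13.01 CPM in WT_HFD_LNAME, and 4.53, 1.70, 15.5 and 5.46 CPM in WT_CD. WT_CD 3 lay inside the range of the fat-fed groups, and the other 3 chow libraries lay below all 7 of those libraries. The log2 fold change was 1.45 in WT_HFD_LNAME against WT_CD (SE 0.57, 95% interval 0.19 to 2.70, adjusted p = 0.252) and 1.56 in KO_HFD_LNAME against WT_CD (adjusted p = 0.293). Without WT_CD 3 the value in WT_HFD_LNAME against WT_CD was 2.23 and passed (adjusted p = 0.0398), where 521 of 14190 genes were called. Without WT_CD 1 and 2 it was 0.84 (adjusted p = 0.622).

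Flt1 had 23.0, 14.4 and 14.2 CPM in KO_HFD_LNAME, 21.7, 19.1, 22.7 and 23.6 CPM in WT_HFD_LNAME, and 11.2, 11.3, 15.9 and 10.5 CPM in WT_CD. All 4 WT_HFD_LNAME libraries lay above all 4 WT_CD libraries, while KO_HFD_LNAME spanned the gap. The log2 fold change in WT_HFD_LNAME against WT_CD was 0.83 (SE 0.19, 95% interval 0.42 to 1.25, adjusted p = 0.0536), short of the threshold. It passed without KO_HFD_LNAME 1 (0.82, adjusted p = 0.0456), without WT_CD 3 (0.99, adjusted p = 0.0221) and with DESeq2 (0.84, adjusted p = 0.00413). Without WT_CD 1 and 2 it was 0.73 (adjusted p = 0.323). Over all genes 521 of 14190 were called without WT_CD 3 and 868 of 16541 with DESeq2. In the authors' deposited table, with 636 of 16575 genes under 0.05, Flt1 stands at 0.79 with an adjusted p of 0.000672. Members other than Vegfc and Flt1 had adjusted p-values of 0.212 (Kdr) to 0.97 (Nrp1) there. Fold changes there can differ in size from those here. Kdr stands there at 0.85 (SE 0.35), against 1.45 (SE 0.57) here. Flt4 had 11.2, 9.40 and 8.32 CPM in KO_HFD_LNAME, 8.34, 5.46, 10.3 and 9.18 CPM in WT_HFD_LNAME, and 7.04, 1.70, 5.99 and 4.83 CPM in WT_CD. Its log2 fold change was 0.77 in WT_HFD_LNAME against WT_CD (95% interval -0.00253 to 1.55, adjusted p = 0.332). In KO_HFD_LNAME against WT_CD it was 0.98 (adjusted p = 0.282), where Flt4 was the 1 member of 10 whose libraries did not overlap, against 7.86% of all genes that were higher and 5.19% that were lower in this way.

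The co-receptor Nrp1 had 178, 144 and 162 CPM in KO_HFD_LNAME, 147, 219, 211 and 110 CPM in WT_HFD_LNAME, and 200, 129, 229 and 160 CPM in WT_CD. The groups overlapped, with a log2 fold change of -0.06 in WT_HFD_LNAME against WT_CD (95% interval -0.59 to 0.46, adjusted p = 0.936). Nrp2 had 33.4, 23.0 and 24.8 CPM in KO_HFD_LNAME, 19.8, 28.9, 32.7 and 21.9 CPM in WT_HFD_LNAME, and 7.04, 7.30, 34.1 and 11.9 CPM in WT_CD. WT_CD 3 held the highest Nrp2 value of all 11 libraries and the other 3 WT_CD libraries the lowest. Its log2 fold change was 0.77 in WT_HFD_LNAME against WT_CD (adjusted p = 0.451), and without WT_CD 3 it was 1.54 and passed (adjusted p = 0.0183), while without WT_CD 1 and 2 it was 0.17 (adjusted p = 0.906). In KO_HFD_LNAME against WT_CD it was 0.84 (adjusted p = 0.508), and without WT_CD 3 1.61 (adjusted p = 0.0325). With WT_CD 3 left out, 521 and 102 of 14190 genes were called in WT_HFD_LNAME and in KO_HFD_LNAME against WT_CD. In RefSeq, 5 members share part of their span with other genes: Vegfc with Gm33153, Kdr with Gm32727, Flt1 with Gm35383, Nrp1 with Gm32643 and Mir1903, and Nrp2 with Gm29083 and 4930487H11Rik. Of these, Mir1903 and 4930487H11Rik have rows of their own in the count table. The overlaps are of whole gene spans, and how reads in them were counted is not given in the sources used here.

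**Figure D4:**
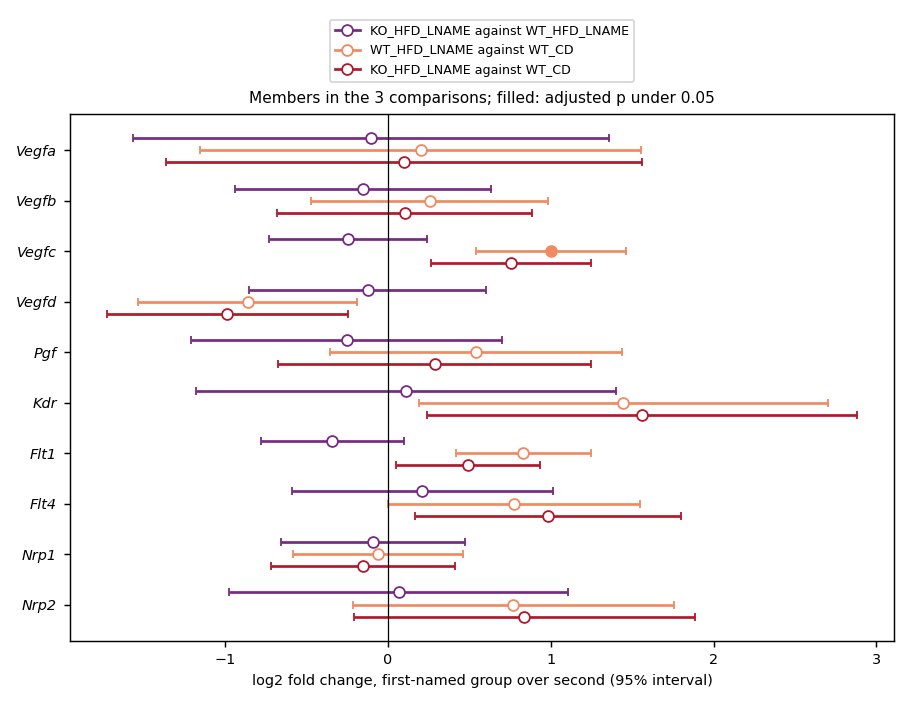
Log2 fold changes (points) with 95% intervals (bars) of the 10 members in the 3 comparisons, the first-named group over the second; a filled point has an adjusted p under 0.05. Vegfc in WT_HFD_LNAME against WT_CD is the single filled point, and all 10 intervals of KO_HFD_LNAME against WT_HFD_LNAME cover 0.

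The comparison of KO_HFD_LNAME with WT_HFD_LNAME asks what loss of Mpst did under the same diet and inhibitor. No member was called by edgeR, 0 of 10 had an unadjusted p under 0.05, and DESeq2 called 0. Over all genes edgeR called 0.014%, 5.12% had such an unadjusted p, and DESeq2 called 38 of 15721. No member was free of overlap between these groups, where 4.41% of all genes were higher and 3.46% lower without overlap, and 3 of 10 members had a fold change above 0, against 47.7% of all genes. The log2 fold changes ran from -0.34 for Flt1 to 0.21 for Flt4, with adjusted p-values of 0.95 to 0.989, and the median was -0.11, against -0.01 over all genes. The intervals bound what could be seen. For Flt1 the 95% interval was -0.78 to 0.10, for Vegfc -0.73 to 0.24 and for Nrp1 -0.66 to 0.48, while for Vegfa (-1.57 to 1.36) and Kdr (-1.18 to 1.40) differences of more than 2-fold in either direction lay within it. Against WT_CD, the knockout libraries gave 0 of 10 called members by edgeR, with 5 at an unadjusted p under 0.05 and 1 called by DESeq2 (Vegfc, adjusted p = 0.0449). Over all genes edgeR called 0.315%, 13.3% had such an unadjusted p, and DESeq2 called 559 of 16131. Of the members, 8 of 10 had a fold change above 0, against 44.3% of all genes. This comparison shares its WT_CD libraries with that of WT_HFD_LNAME, so the values of both are not independent. Its median log2 fold change for the family was 0.39.

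Kdr, Flt1 and Flt4 are made largely by endothelial cells, and the endothelial markers are therefore set beside them. All 16 endothelial markers had a fold change above 0 in WT_HFD_LNAME against WT_CD, with a median log2 fold change of 1.16. Of them 2 were called higher, Emcn and Mmrn2 (adjusted p = 0.0473 and 0.0498), and 15 had an unadjusted p under 0.05. Over all genes 1.4% were called higher, 15.1% had such an unadjusted p and 46.1% had a fold change above 0. With WT_CD 1 left out 1 endothelial marker was called, and with WT_CD 3 left out 9, where 521 of 14190 genes were called. With any other single library left out, or WT_CD 1 and 2 together, 0 were called. Cdh5 (VE-cadherin) averaged 67.4, 68.9 and 28.5 CPM in KO_HFD_LNAME, WT_HFD_LNAME and WT_CD. The endothelial score, the mean of log2(CPM + 0.5) over the 16 markers, was 5.35 to 5.70 in KO_HFD_LNAME, 5.38 to 6.07 in WT_HFD_LNAME and 3.93 to 5.08 in WT_CD, without overlap between the chow and the fat-fed libraries. Across libraries, Kdr had a Pearson r of 0.83 with the endothelial score, 0.75 with the white adipocyte score and 0.64 with mesothelial markers. By Spearman rho these values were 0.66, 0.84 and 0.84. Pearson r of Kdr was 0.84 with lymphatic endothelial, 0.75 with B cell and 0.67 with Schwann cell markers (Spearman rho 0.65, 0.75 and 0.36). Flt4 had a Pearson r of 0.83 with lymphatic endothelial markers and 0.63 with the endothelial score (Spearman rho 0.57 and 0.81). Flt1 had a Pearson r of 0.86 with the endothelial score and 0.81 with Schwann cell markers. The part of these cell types in the receptor values was not tested. In bulk tissue, fewer cells of a type and less RNA per cell cannot be told apart. Of 6 lymphatic markers, Ccl21a was at 0 in all 11 libraries, and how reads of its near-identical copies were counted is not given in the sources used here. Prox1 averaged 0.335, 0.232 and 0.179 CPM in KO_HFD_LNAME, WT_HFD_LNAME and WT_CD and was too low to test. The other 4 were tested. Reln was called higher in WT_HFD_LNAME (9.74 ± 2.87 CPM) than in WT_CD (2.43 ± 1.09 CPM, adjusted p = 0.0247). Mmrn1 averaged 16.3 ± 2.07 CPM in WT_HFD_LNAME and 6.17 ± 3.03 CPM in WT_CD, without overlap (log2 fold change 1.40, adjusted p = 0.0633). Lyve1 averaged 34.2, 28.5 and 38.0 CPM and Pdpn 13.4, 11.6 and 13.5 CPM in KO_HFD_LNAME, WT_HFD_LNAME and WT_CD, with log2 fold changes of -0.42 and -0.23 in WT_HFD_LNAME against WT_CD. The lymphatic score over the tested markers was 3.66 to 4.20 in KO_HFD_LNAME, 3.83 to 4.11 in WT_HFD_LNAME and 2.69 to 3.67 in WT_CD, so that WT_HFD_LNAME lay above WT_CD without overlap; its part in the Vegfc and Flt4 values was not tested.

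Each receptor was also set against the endothelial score in its own library. With 10 exact two-sided permutation tests at these group sizes, the smallest adjusted p that can be reached is 0.0571, so that no difference could pass, and the values stand as descriptions. Kdr minus the score was -1.23 ± 0.44 in KO_HFD_LNAME (SD, n = 3), -1.58 ± 0.51 in WT_HFD_LNAME and -2.05 ± 0.98 in WT_CD (n = 4 each). Flt1 minus the score was -1.41 ± 0.25 in KO_HFD_LNAME, -1.24 ± 0.21 in WT_HFD_LNAME and -0.91 ± 0.38 in WT_CD. Flt1 relative to the score differed by -0.33 in WT_HFD_LNAME against WT_CD (exact permutation p = 0.171, adjusted p = 0.571). Nrp1 minus the score was 1.66 ± 0.58 in WT_HFD_LNAME and 2.90 ± 0.55 in WT_CD, lower in all 4 WT_HFD_LNAME libraries. The exact permutation p was 0.0286, the smallest that 4 against 4 allows, and the adjusted p was 0.286. Nrp1 itself overlapped between these groups (log2 fold change -0.06), while the endothelial score averaged 5.71 in WT_HFD_LNAME and 4.56 in WT_CD. This difference in Nrp1 minus the score thus lies mostly in the score that was subtracted. Flt4 minus the score was -2.19 ± 0.04 in KO_HFD_LNAME and -2.60 ± 0.17 in WT_HFD_LNAME, higher in all 3 knockout libraries. The exact permutation p was 0.0571, the smallest that 3 against 4 allows, and the adjusted p was 0.286. In WT_CD this measure was -2.27 ± 0.96, from -3.36 to -1.02, a range that covers both other groups. Flt4 itself overlapped between KO_HFD_LNAME and WT_HFD_LNAME (log2 fold change 0.21), and the subtracted score averaged 5.52 and 5.71 there. Nrp2 minus the score was -0.76 ± 0.19 in KO_HFD_LNAME, -1.02 ± 0.37 in WT_HFD_LNAME and -0.90 ± 0.67 in WT_CD.

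**Figure D5:**
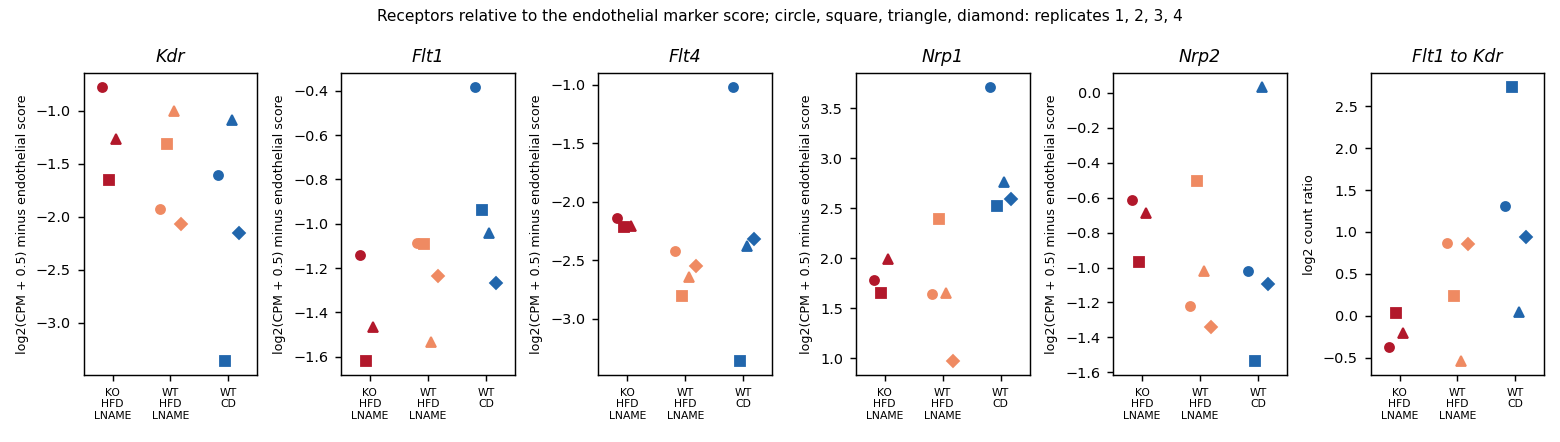
Each receptor's log2(CPM + 0.5) minus the endothelial score of the same library, and the log2 ratio of Flt1 to Kdr counts, by group in the order KO_HFD_LNAME, WT_HFD_LNAME, WT_CD, with 1 point per library. Nrp1 minus the score separates WT_HFD_LNAME (0.97 to 2.39) from WT_CD (2.52 to 3.71), where the CPM of Nrp1 overlaps and the score does not. In WT_CD the log2 ratio (SD 1.12), Kdr (0.98) and Flt4 (0.96) spread the most.

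The ratio of Flt1 to Kdr counts sets the decoy-prone receptor against the main signalling one. It was 0.773, 1.02 and 0.866 in KO_HFD_LNAME, 1.82, 1.17, 0.685 and 1.81 in WT_HFD_LNAME, and 2.47, 6.65, 1.03 and 1.92 in WT_CD. This ratio is not scaled to exon length (13504 bases for Flt1 and 9030 for Kdr). It therefore compares libraries and does not show which receptor was more abundant. The groups overlapped. The log2 ratio differed by -0.54 in KO_HFD_LNAME against WT_HFD_LNAME (exact permutation p = 0.257, smallest possible 0.0571) and by -0.90 in WT_HFD_LNAME against WT_CD (exact permutation p = 0.229, smallest possible 0.0286), both with an adjusted p of 0.257, where 0.0571 is the smallest that can be reached. The highest ratio, 6.65 in WT_CD 2, rested on 17 Kdr reads, and without WT_CD 1 and 2 the second difference was -0.14. Soluble and membrane forms of Flt1 cannot be told apart in counts per gene.

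Among partners of the receptors, 3 of 23 tested genes rose in WT_HFD_LNAME against WT_CD, none fell and 20 were not called, where 1.4% of all genes rose and 0.0839% fell, with a median log2 fold change of -0.12 against -0.03 over all genes. All 3 are endothelial genes. Clec14a, a lectin-like membrane protein of endothelium, averaged 29.6 ± 7.62 CPM in WT_HFD_LNAME and 12.3 ± 1.11 CPM in WT_CD (SD, n = 4 each), a log2 fold change of 1.26 (SE 0.21, adjusted p = 0.0247). Plxnd1, a semaphorin receptor, averaged 50.1 ± 11.2 CPM in WT_HFD_LNAME and 24.5 ± 5.997 CPM in WT_CD (1.03, SE 0.21, adjusted p = 0.0418). Emcn, endomucin, a sialomucin that takes part in Kdr uptake and is also on the endothelial list, averaged 43.5 ± 11.6 CPM in WT_HFD_LNAME and 10.6 ± 7.40 CPM in WT_CD (2.02, SE 0.42, adjusted p = 0.0473). The Clec14a call was lost on leaving out WT_HFD_LNAME 1 or 4 (adjusted p = 0.0554 and 0.0652) or WT_CD 1, 2 or 4 (0.0587, 0.0871 and 0.0901). The calls of Plxnd1 and Emcn were kept on leaving out WT_CD 3 (adjusted p = 0.029 and 0.0106) and lost on leaving out any other 1 of the 11 libraries. Over all 11 single omissions the log2 fold change was 0.87 to 1.14 for Plxnd1 and 1.79 to 2.58 for Emcn.

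Of 23 tested regulators that act upstream of the family (hypoxia-inducible factors, their hydroxylases, and endothelial transcription factors), 2 rose in WT_HFD_LNAME against WT_CD, none fell and 21 were not called, beside the same 1.4% and 0.0839% of all genes, with a median log2 fold change of 0.28 against -0.03 over all genes. Gata2, a transcription factor of endothelial and blood cells, averaged 20.7 ± 4.93 CPM in WT_HFD_LNAME and 6.95 ± 2.08 CPM in WT_CD (log2 fold change 1.57, SE 0.23, adjusted p = 0.0205). Sox18, a factor of endothelial and lymphatic identity, averaged 56.4 ± 14.1 CPM in WT_HFD_LNAME and 20.9 ± 8.99 CPM in WT_CD (1.43, SE 0.30, adjusted p = 0.0453). The Gata2 call was lost without WT_HFD_LNAME 1 or 4 (adjusted p = 0.0554 and 0.0541) and without WT_CD 2 or 4 (0.0705 and 0.0901). That of Sox18 was kept without WT_CD 3 (1.75, adjusted p = 0.014) and lost without any other 1 of the 11 libraries, where the log2 fold change was at least 1.26 and the adjusted p at most 0.133.

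None of the other 4 lists had a called gene in WT_HFD_LNAME against WT_CD by edgeR. The counts at an unadjusted p under 0.05 in these lists stand beside 15.1% of all genes. Of 33 tested signalling genes downstream of the receptors, 3 had an unadjusted p under 0.05, and the 2 with the smallest were Nos3, the endothelial nitric oxide synthase (51.7 ± 10.7 CPM in WT_HFD_LNAME and 22.3 ± 10.2 CPM in WT_CD, adjusted p = 0.11), and the adaptor Nck1 (log2 fold change 0.63, adjusted p = 0.113). Of 19 genes raised by VEGF in cultured endothelium, 6 were higher at an unadjusted p under 0.05 and 1 was lower at such a p. Of the 19, 8 had a fold change above 0, against 46.1% of all genes. Their median log2 fold change was -0.12, against -0.03 over all genes. The 6 higher ones included Vcam1, a leukocyte adhesion molecule (46.1 ± 3.94 CPM in WT_HFD_LNAME and 29.6 ± 5.79 CPM in WT_CD, adjusted p = 0.0613), and Dll4, a Notch ligand of endothelium (log2 fold change 1.59, adjusted p = 0.109). Of 11 hypoxia targets 1 had an unadjusted p under 0.05, Ankrd37 (log2 fold change 1.30, adjusted p = 0.0568), and next came Egln3 (0.35, adjusted p = 0.702). Of 7 processing factors and proteases of VEGF-C and VEGF-D, 0 had such a p, and the 2 smallest belonged to the convertases Pcsk7 (0.15, adjusted p = 0.54) and Pcsk5 (0.14, adjusted p = 0.752). DESeq2 called each of Nos3 (adjusted p = 0.0221), Dll4 (0.015), Vcam1 (0.00602) and Ankrd37 (0.00629). Over all genes DESeq2 called 868 of 16541 in this comparison.

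In KO_HFD_LNAME against WT_HFD_LNAME no gene of the 6 lists was called by edgeR or, of those named here, by DESeq2. Among partners the smallest p belonged to the semaphorin receptor Plxna2 (17.3 ± 0.73 CPM in KO_HFD_LNAME and 21.3 ± 2.29 CPM in WT_HFD_LNAME, log2 fold change -0.30, adjusted p = 0.842), followed by Plxna1 (0.32, adjusted p = 0.95). Among regulators they were those of Tal1 (-0.62, adjusted p = 0.875) and Foxo1 (-0.33, adjusted p = 0.929). In the other lists they were those of Pxn (0.34) downstream, Vcam1 (0.34) and Rcan1 (0.41) among genes raised by VEGF, Adm (0.46) and Bnip3 (-0.83) among hypoxia targets, and Pcsk5 (0.31) and Adamts14 (0.63) among processing factors, each with an adjusted p of 0.95.

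In KO_HFD_LNAME against WT_CD, Plxnd1 rose among the 23 partners and Vcam1 among the 19 genes raised by VEGF, none fell, and no gene of the other 4 lists was called by edgeR. Over all tested genes 0.315% were called in this comparison. Plxnd1 averaged 58.6 ± 11.1 CPM in KO_HFD_LNAME and 24.5 ± 5.997 CPM in WT_CD (log2 fold change 1.26, adjusted p = 0.0483). Vcam1 averaged 58.4 ± 7.50 CPM in KO_HFD_LNAME and 29.6 ± 5.79 CPM in WT_CD (0.98, adjusted p = 0.044). Both calls held without WT_HFD_LNAME 3 and without WT_CD 3, with adjusted p-values of 0.036 to 0.0367 for Plxnd1 and 0.0357 to 0.036 for Vcam1. Both were lost on leaving out any other 1 of the 11 libraries, where the adjusted p reached 0.16 for Plxnd1 and 0.132 for Vcam1. The genes next in their lists by p had log2 fold changes of 0.89 for Clec14a (adjusted p = 0.108), 0.81 for Rcan1, a calcineurin regulator (adjusted p = 0.0997), 1.06 for Gata2 (adjusted p = 0.0941), 0.93 for Sox18 (adjusted p = 0.224), 0.48 for Fyn (adjusted p = 0.205) and 1.06 for Nos3 (adjusted p = 0.233). Ankrd37 stood at 1.21 (adjusted p = 0.132), Adm at 0.56 (adjusted p = 0.402), Pcsk5 at 0.44 (adjusted p = 0.303) and Adamts14 at 0.61 (adjusted p = 0.539).

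The genes most like each member across the 11 libraries, by Pearson r of log2(CPM + 0.5) among 10536 genes, are a description of libraries that share depth and tissue makeup. Nearest to Kdr were Dll4, Tcf15 and Gimap6 (r = 0.969, 0.969 and 0.966), and nearest to Flt1 were Arhgap31, Abcg2 and Sox18 (0.935, 0.933 and 0.925). Flt4 was nearest to Sh2d3c, Jag2 and Mmrn1 (0.956, 0.937 and 0.918), and Vegfc to Elk3, Neurl1b and Ldb2 (0.965, 0.952 and 0.951). Vegfa was nearest to Mme, Aifm2 and Mccc2 (0.981, 0.981 and 0.980), and Vegfb to Ppif, Idh2 and Coa6 (0.983, 0.982 and 0.973), which encode mitochondrial proteins. For Vegfd the nearest were Tsn, Hcfc1r1 and Tor1b (0.955, 0.953 and 0.951), and for Pgf Mustn1, Errfi1 and Uba2 (0.961, 0.947 and 0.942). For the neuropilins they were Ifnar1, Rmi1 and Glmn (0.937, 0.921 and 0.921) beside Nrp1, and Kti12, Sh3bp5 and F11r (0.988, 0.979 and 0.978) beside Nrp2.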

How the data were processed

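The authors deposited RNA-seq reads per gene as raw whole-number counts. The tools named in the submitters' processing notes were Trimmomatic 0.39 for trimming, HISAT2 2.2.1 for alignment to mm10 (GRCm38) and featureCounts 2.0.3 for counting; strand setting, annotation and handling of multiple alignments are not given in the sources used here. The authors also deposited comparison tables with log2 fold changes, p-values and adjusted p-values, made with DESeq2 (Galaxy 2.11.40.7) per those notes; the mean-level and Wald score columns in the authors' tables were not used.

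Here edgeR 4.0.16 in R 4.3.3 was run on the counts: filterByExpr kept 14303 of 27179 genes, TMM factors ran from 0.814 to 1.15, and all 11 libraries entered 1 robust quasi-likelihood fit with Benjamini-Hochberg adjustment and a threshold of 0.05. All adjusted p-values of genes come from this test unless another source is named. Intervals cover model error at 95%. Scores and likeness used log2(CPM + 0.5). Receptor measures were compared by exact two-sided permutation tests. DESeq2 1.42.0, other scalings and filters, and omitted libraries were alternatives. The fitting code was tested on simulated data. No replicate pair agreed within sampling noise: chi-square per degree of freedom over genes was 18.6 or more. The members and lists were chosen with earlier results of these data known. Named genes are the 10 members, every called list gene and the 2 smallest p-values of each list and comparison, except 1 downstream gene that is not reported here; likeness gives 3 genes per member with a mean of at least 5 CPM.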

Additional observations from a re-analysis of the deposited data

Results flagged for a closer look

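Flt1 in WT_CD 3 stood apart from the other libraries of its group: it had 15.9 CPM, and the other 3 WT_CD libraries had 10.5 to 11.3 CPM. A gap test on the highest and lowest library of each group of 4 was run on 32 groups of values and marked this 1. Chance marks about 1 in 20 such groups. WT_CD 3 was also the highest WT_CD library on the endothelial score (5.08) and on the white adipocyte score (8.57), and the part of these in the Flt1 value was not tested.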

How the results depend on the processing

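Gene counts moved with the processing. For KO_HFD_LNAME against WT_HFD_LNAME, WT_HFD_LNAME against WT_CD and KO_HFD_LNAME against WT_CD the edgeR counts of called genes were 2, 212 and 45. They were 38, 868 and 559 with DESeq2, and 1, 31 and 3 with only the libraries compared in the fit. Without the filter the last 2 were 138 and 29. Without WT_HFD_LNAME 3 and 4 the first 2 were 1 and 59, and without WT_CD 1 and 2 the last 2 were 0 (edgeR, 1627 at an unadjusted p under 0.05) and 4. Leaving out single libraries gave 1 to 3, 2 (without WT_CD 2) to 521 (without WT_CD 3), and 4 (without KO_HFD_LNAME 2 or WT_CD 2) to 102 (without WT_CD 3). The cause was not tested.

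Nothing in the labels says that the replicate numbers pair the libraries. Same-numbered deviations from the group means correlated at -0.226 to -0.0712, -0.117 to 0.586 and -0.123 to 0.301 in the 3 comparisons. These few correlations cannot settle whether libraries were paired. With the replicate number as a block the counts were 1, 42 and 13, Vegfc stood at 1.02 (adjusted p = 0.0767) in WT_HFD_LNAME against WT_CD, and Vegfa (0.0243) and Pgf (0.0319) changed sign in KO_HFD_LNAME against WT_HFD_LNAME.

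Of 190 member values under alternatives per comparison, 175, 164 and 180 kept direction and side of the threshold. Vegfc in WT_HFD_LNAME against WT_CD kept its call in 6 of 19 alternatives and had an adjusted p of 0.0538 without the filter and 0.0968 with 2 groups fitted. Several uncalled values changed sign. Without WT_CD 1 and 2, Vegfa and Vegfb stood at -0.46 and -0.19 in WT_HFD_LNAME against WT_CD and at -0.56 and -0.34 in KO_HFD_LNAME against WT_CD, and Egln3 at -0.0663 in the first of these. Without WT_HFD_LNAME 3 and 4, Vegfa was 0.042 in KO_HFD_LNAME against WT_HFD_LNAME, and Nrp1 0.0277 and Egln3 -0.00374 in WT_HFD_LNAME against WT_CD. Over single omissions in KO_HFD_LNAME against WT_HFD_LNAME, Kdr ran from -0.29 to 0.55, Nrp1 from -0.25 to 0.0459, Nrp2 from -0.12 to 0.20, Pgf from -0.48 to 0.0223, Vegfa from -0.37 to 0.35 and Vegfb from -0.30 to 0.00601. In WT_HFD_LNAME against WT_CD Nrp1 ran from -0.20 to 0.0906 and Vegfa from -0.25 to 1.10, and in KO_HFD_LNAME against WT_CD Vegfa from -0.21 to 0.99 and Vegfb from -0.0742 to 0.54. Relative to the endothelial score, Nrp1 ran from -0.085 to 0.39 in KO_HFD_LNAME against WT_HFD_LNAME, and in WT_HFD_LNAME against WT_CD Flt4 from -0.70 to 0.0816 and Nrp2 from -0.33 to 0.20. With 17 reads of Kdr and of Flt4 in WT_CD 2, counting error limits those values.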
